A study of Mus musculus with 6 samples.

Results

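Alpha-actinin-1 and 7 other genes that tie actin filaments to each other and to the cell membrane were measured in endothelial-enriched RNA from mouse carotid arteries under 2 kinds of blood flow. The genes are Actn1, Actn4, Lima1, Vcl, Flna, Zyx, Tln1 and Vasp, 8 of the 19057 genes named on the array. They were selected on the signals of this same comparison, in which Actn1 and Lima1 separated the groups, so the differences of all 8 between the groups are a description and carry no p-value. They are represented by 12 of the 45281 probes. Of these, 11 had a detection p under 0.05, called above background here, on 3 or more of the 6 arrays and count as measured, and 1 Flna probe was above background on 0 arrays.

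The mice were C57Bl/6J of wild-type genotype in both groups, and the groups differed in the flow to which the carotid artery was exposed: stable flow on 3 arrays and disturbed flow, the low and oscillating flow typical of curved or branched vessels, on 3 arrays. The arrays are called stable 1 to 3 and disturbed 1 to 3 by group and replicate number. Age, sex and pooling of animals are not given in the labels, nor is it said that samples came from separate animals, so the errors given are those between samples and may be technical. Each group was scanned on a slide of its own, so slide and flow cannot be told apart.

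Every sign rests on the sample descriptions. The columns of the deposited series matrix each had the rank order of a scanned array whose description named the opposite group, for 6 of 6 columns. Signs here follow the scanned arrays, and the matrix column names would turn each of them. The arrays were also uneven, with 9.74% of probes above background on stable 2 and 19.6% or more on the others. Of 12 endothelial markers 11 were above background on at least 3 arrays, among them Pecam1 with log2 intensities of 9.40 to 10.39, while Kdr was above background on 0 arrays. Of 8 smooth muscle markers 4 were also measured. In such bulk RNA, fewer cells of a type and less RNA per cell cannot be told apart.

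Endothelial cells hold to their matrix through focal adhesions, where integrins bind talin, talin opens under tension to bind vinculin, and alpha-actinin and filamin join the arriving actin filaments into bundles and networks. Zyxin and VASP gather where stress fibres are strained and help actin to grow there, and the LIM protein encoded by Lima1, also called EPLIN, bundles filaments and links them to cell-cell junctions. Endothelial cells rebuild this machinery when flow changes, and many of its genes are textbook targets of serum response factor, SRF, which binds a DNA element called the CArG box.

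RefSeq promoter windows of 300 bases (build GRCm38.p6, from 250 bases before a gene's start to 50 after) were matched for 8 of the 8 genes and searched on both strands for the strict CArG box, whose pattern reads the same on each. Of all 32851 windows 1.63% held one, and of the 8 members 2 did, Lima1 and Vcl. These windows are printed with the box in capitals, beside that of Actn1, the gene with the largest difference, which held none. The Lima1 window lies at chr15:99820100-99820399 on the minus strand, at a start inside the span of the gene, and its box begins at position -47 from that start. The Vcl window lies at chr14:20929148-20929447 on the plus strand, with the box at position -227. The Actn1 window lies at chr12:80260314-80260613 on the minus strand.
Lima1: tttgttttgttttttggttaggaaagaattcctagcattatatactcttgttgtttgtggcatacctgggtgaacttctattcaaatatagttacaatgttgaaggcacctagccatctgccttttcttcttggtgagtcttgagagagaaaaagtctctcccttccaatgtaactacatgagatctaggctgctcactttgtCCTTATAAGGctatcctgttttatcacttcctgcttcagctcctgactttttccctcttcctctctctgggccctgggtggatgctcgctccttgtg
Vcl: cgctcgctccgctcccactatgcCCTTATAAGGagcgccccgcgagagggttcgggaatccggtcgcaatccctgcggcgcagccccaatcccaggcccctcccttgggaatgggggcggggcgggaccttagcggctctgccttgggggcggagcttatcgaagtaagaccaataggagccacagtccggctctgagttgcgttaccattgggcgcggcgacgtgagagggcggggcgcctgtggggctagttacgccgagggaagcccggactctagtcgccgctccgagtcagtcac
Actn1: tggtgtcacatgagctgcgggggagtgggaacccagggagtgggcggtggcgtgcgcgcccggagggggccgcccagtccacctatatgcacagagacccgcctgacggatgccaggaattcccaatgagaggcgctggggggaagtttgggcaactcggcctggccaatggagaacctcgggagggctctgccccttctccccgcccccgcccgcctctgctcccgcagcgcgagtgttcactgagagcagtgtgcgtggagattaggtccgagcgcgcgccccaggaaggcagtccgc
The boxes of Lima1 and Vcl were the same 10 letters, and each is a match of letters, not a measured binding site. The Lima1 window was 42.3% G and C, below the median of 52.7% over all windows, and those of Vcl and Actn1 were 66.7% and 68.3%.

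Actn1, which encodes an alpha-actinin that crosslinks actin filaments in non-muscle cells, had the largest difference of the members. The deposited signal of its only probe (ILMN_2844996) was 293 on stable 1, 90.0 on stable 2 and 156 on stable 3, against 790 on disturbed 1, 577 on disturbed 2 and 1152 on disturbed 3. All 3 disturbed flow arrays were above all 3 stable flow arrays before any processing, and the highest value came from disturbed 3. Each array can also be read by rank alone. Among all probes Actn1 lay at percentile 94.1, 61.5 and 92.3 of stable 1 to 3 and at percentile 98.9, 98.7 and 99.8 of disturbed 1 to 3.

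After background correction and quantile normalization Actn1 had log2 intensities of 6.67, 4.49 and 6.23 on stable 1 to 3 and 8.99, 8.79 and 10.21 on disturbed 1 to 3. The lowest disturbed flow value lay 2.13 above the highest stable flow value. The means were 5.79 ± 1.15 and 9.33 ± 0.77 (SD, n = 3 each), a difference of 3.54 (SE 0.66), or 11.6-fold. The probe was not above background on stable 2, and without that array the difference was 2.88. It was 2.43 with no background correction and 3.69 when arrays were scaled to a common 75th percentile in place of quantile normalization, called percentile scaling from here on. Of the 12546 measured probes 1 had a larger upward difference, and nothing is read from this rank, because Actn1 was chosen on these values. In the limma fit over all measured probes 0, or 0%, passed a Benjamini-Hochberg adjusted p of 0.05, and 2.69% had an unadjusted p under 0.05.

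The summed level of the measured fibroblast and adventitia markers separated the same arrays by a narrow margin, but only with 2 of the 7 markers left out. Their 5 measured genes of 7 (Dcn, Pdgfra, Col1a1, Col3a1 and Serpinf1) had a summed normalized intensity of 154 to 297 under stable flow and 300.4 to 561 under disturbed flow. The genes were 3 with higher and 2 with lower means, and the high sums came from Col3a1 on disturbed 1 and disturbed 3 and from Serpinf1 on disturbed 2. None of the 5 separated the groups alone. Lum and Dpt, left out of the sum, were highest under stable flow, at log2 intensities of 6.62 on stable 2 and 5.61 on stable 3. With both added, stable 3 lies above disturbed 1 and the sums overlap. All 7 markers were above background on at least 1 array, and their part in the Actn1 and Lima1 differences was not tested. Platelets are rich in several of the proteins described here. Of 7 platelet markers Gp9 was measured, at an intensity of 220 to 360 under stable flow and 123 to 253 under disturbed flow, and Ppbp, Itga2b, Gp1bb and Treml1 were above background on 0 arrays. Of 8 macrophage markers Lyz2 was measured, at 20.4 to 60.3 and at 27.8 to 257, with its highest value on disturbed 1. Smooth muscle markers had sums of 368 to 424 and 291 to 432, with Tagln and Lmod1 above background on 0 arrays. Of the 4 measured, 3 had higher means under disturbed flow and 1 a lower mean. Synm alone had no overlap, at log2 intensities of 4.62 to 4.71 and 5.12 to 5.30, as had 5.68% of all measured probes in that direction. Of 8 skeletal muscle markers 0 were measured, and 4 were above background on 0 arrays. The muscle alpha-actinin genes Actn2 and Actn3, among the 8, were each above background on 1 array. Actn2 and Myh4 were highest on stable 2, at log2 intensities of 6.59 and 6.41.

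**Figure D1:**
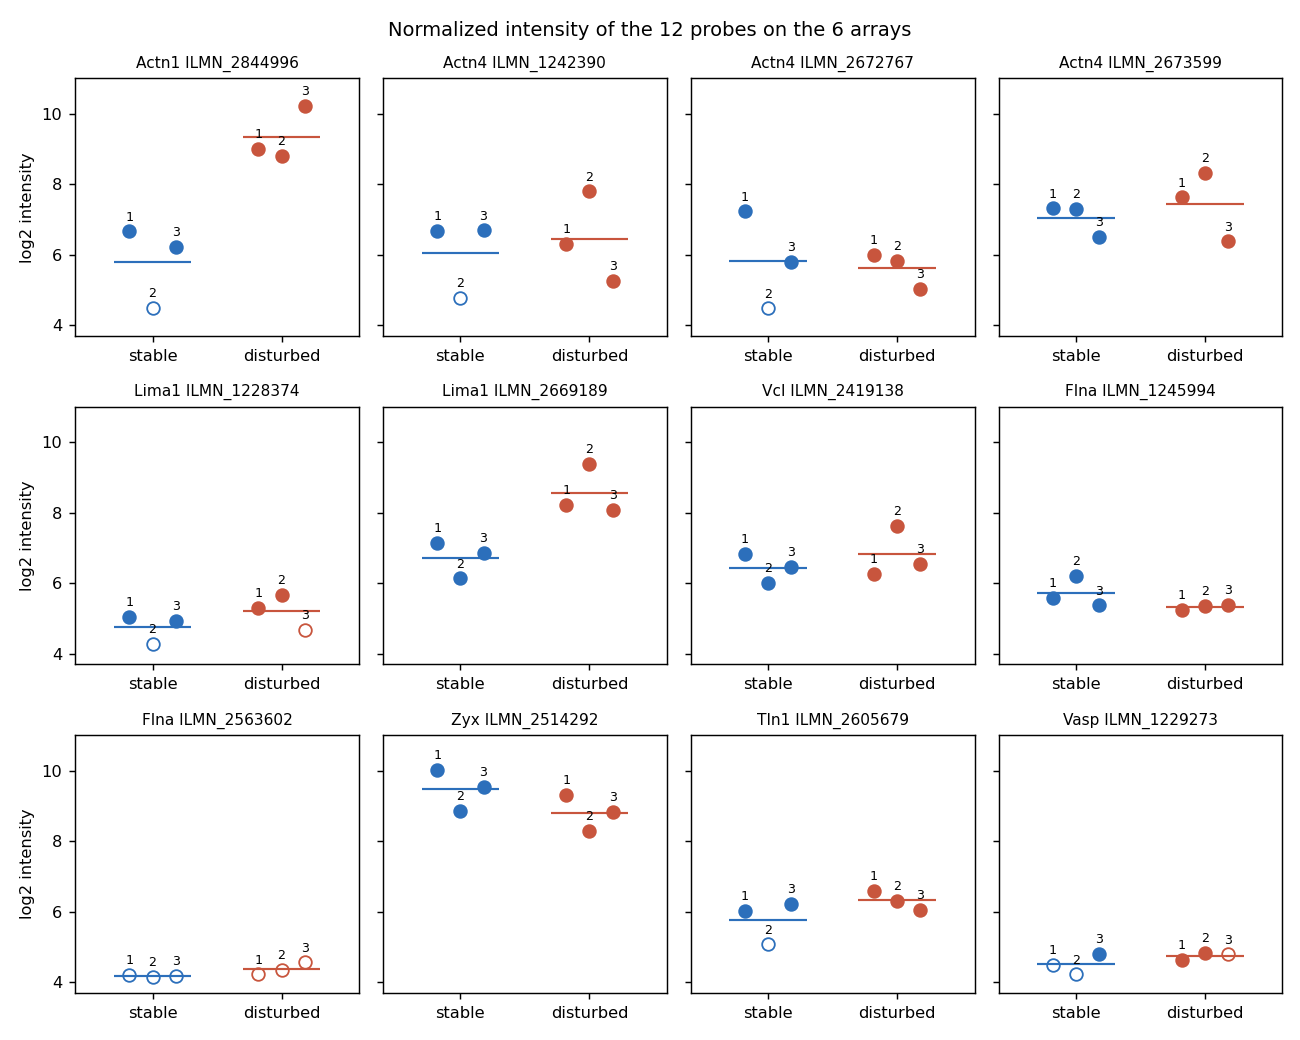
Normalized log2 intensity of the 12 probes of the 8 genes on the 3 arrays described as stable flow (blue) and the 3 described as disturbed flow (red), with replicate numbers beside the points, group means as lines, and open points where the probe was not above background. Actn1 and the brighter Lima1 probe are the measured probes with no overlap between groups, and the Flna probe ILMN_2563602 is open on all 6 arrays.

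Lima1 was read by 2 probes. The brighter probe (ILMN_2669189) had log2 intensities of 7.13, 6.14 and 6.87 on stable 1 to 3 and 8.21, 9.37 and 8.07 on disturbed 1 to 3. The groups did not overlap, and the gap between them was 0.94. Means were 6.71 ± 0.52 and 8.55 ± 0.71 (SD, n = 3 each), a difference of 1.84 (SE 0.48), or 3.58-fold. The separation depended on the scaling of the arrays. The deposited signals were 358, 97.4 and 200.4 under stable flow and 509, 850.1 and 198 under disturbed flow, so that disturbed 3 lay below stable 1 and stable 3. The groups also overlapped with percentile scaling, where the difference was 2.20.

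The dimmer Lima1 probe (ILMN_1228374) had 5.05, 4.27 and 4.93 on stable 1 to 3 and 5.30, 5.68 and 4.67 on disturbed 1 to 3. It was above background on 4 of 6 arrays and its groups overlapped. Its difference was 0.46 (SE 0.41), 0.23 without stable 2 or without disturbed 2, 0.14 with no normalization and 0.18 with no background correction. The mean of both probes gave 1.15. Both probes were highest on disturbed 2 and lowest on stable 2.

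**Figure D2:**
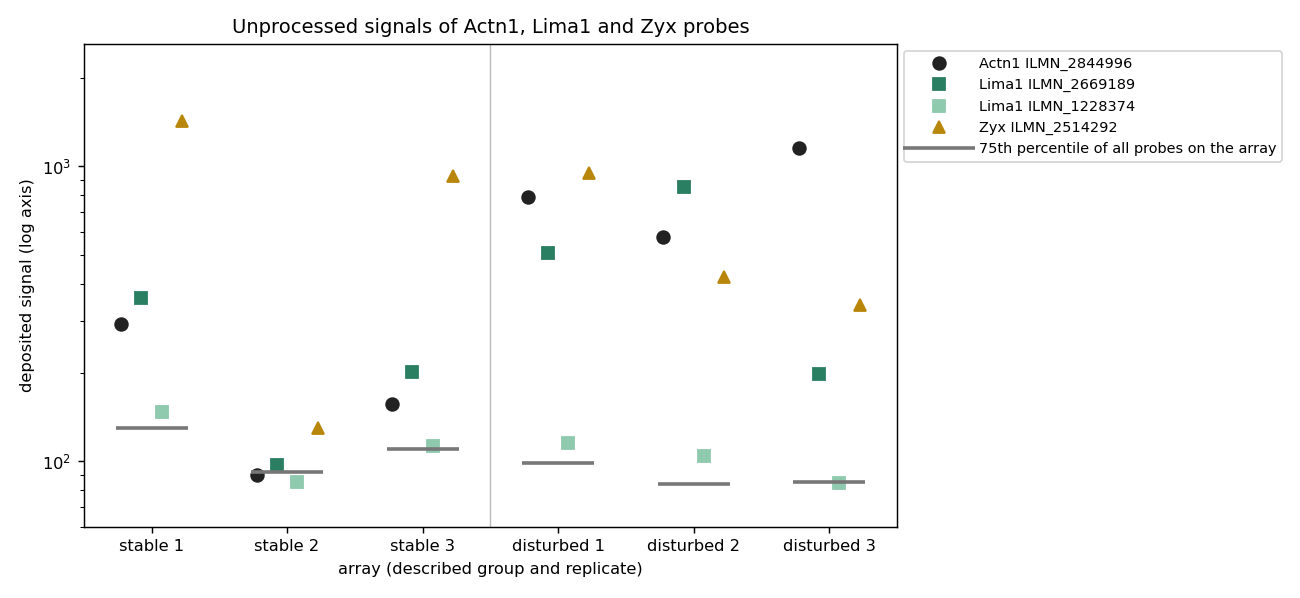
Deposited signals, before any processing, of the Actn1 probe, both Lima1 probes and the Zyx probe on each array (log axis, points set side by side within an array), with the 75th percentile of all probes on the array as a grey bar. Actn1 is higher on the 3 disturbed flow arrays (577 to 1152) than on the 3 stable flow arrays (90.0 to 293), the other probes overlap, and levels of different probes are not comparable.

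Actn4 encodes the other non-muscle alpha-actinin, and its 3 probes had overlapping groups. The brightest (ILMN_2673599) had log2 intensities of 7.31, 7.30 and 6.51 on stable 1 to 3 and 7.63, 8.33 and 6.38 on disturbed 1 to 3. Its highest and lowest values were both under disturbed flow. Means were 7.04 ± 0.46 and 7.45 ± 0.99 (SD, n = 3 each), and the difference of 0.41 (SE 0.55) turned to -0.03 without disturbed 2 and was 1.06 with percentile scaling. ILMN_1242390 had 6.68, 4.78 and 6.69 against 6.30, 7.80 and 5.27, with disturbed 2 highest and stable 2 lowest. It differed by 0.41 (SE 0.78), by -0.26 without disturbed 2 and by -0.23 without stable 2. ILMN_2672767 had 7.23, 4.48 and 5.80 against 6.01, 5.82 and 5.03, with the highest and the lowest value both under stable flow. It differed by -0.22 (SE 0.70), by 0.48 without stable 1 and by 0.08 without disturbed 3. Whether Actn4 differs from Actn1 was not tested, because the members were chosen on these values.

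Vcl encodes vinculin, which joins talin and alpha-catenin to actin under load. Its probe (ILMN_2419138) had log2 intensities of 6.84, 6.02 and 6.46 on stable 1 to 3 and 6.27, 7.63 and 6.55 on disturbed 1 to 3. Disturbed 2 stood above the other 5 arrays, which lay between 6.02 and 6.84. The difference was 0.38 (SE 0.46) and turned to -0.03 without disturbed 2.

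Tln1 encodes talin-1, the link between integrins and actin. Its probe (ILMN_2605679) had 6.02, 5.07 and 6.23 on stable 1 to 3 and 6.60, 6.32 and 6.05 on disturbed 1 to 3. The lowest value was on stable 2, where the probe was not above background, and the other 5 arrays lay between 6.02 and 6.60 with the groups interleaved. The difference was 0.55 (SE 0.41), 0.20 without stable 2 and 0.20 with no normalization.

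Zyx, the zyxin gene, and Flna, the filamin A gene, had negative differences. Zyx (ILMN_2514292) had 10.03, 8.85 and 9.53 on stable 1 to 3 and 9.31, 8.30 and 8.82 on disturbed 1 to 3, above background on all 6 arrays. The groups overlapped because stable 2 lay below disturbed 1. The difference was -0.66 (SE 0.45), but 0.37 with percentile scaling and 0.16 with no normalization. The measured Flna probe (ILMN_1245994) had 5.58, 6.21 and 5.37 on stable 1 to 3 and 5.24, 5.36 and 5.38 on disturbed 1 to 3. The disturbed flow arrays lay close together, with an SD of 0.07 against 0.44 under stable flow. The difference of -0.39 (SE 0.35) was -0.15 without stable 2 and -0.16 with no background correction. Stable 2 held the highest value after quantile normalization, but its deposited signal of 97.6 was below those of stable 1 (183) and stable 3 (123).

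Vasp encodes an actin polymerisation factor that zyxin recruits. Its probe (ILMN_1229273) stayed close to background, with 4.48, 4.22 and 4.81 on stable 1 to 3 and 4.63, 4.83 and 4.79 on disturbed 1 to 3. It was above background on 1 stable flow array and 2 disturbed flow arrays, and the groups overlapped. The difference of 0.24 (SE 0.33) was -0.01 with no normalization.

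Over the 8 genes, each taken by its brightest measured probe, 6 means were higher under disturbed flow and 2 lower, with a median difference of 0.39 that was 0.09 without disturbed 2. Of all 12546 measured probes 57.4% were higher, with a median difference of 0.10. The groups did not overlap for 2 of the 11 member probes, Actn1 and the brighter Lima1 probe, both with disturbed flow higher. Among all measured probes 9.68% had no overlap, 5.68% with disturbed flow higher and 4% with it lower. Because Actn1 and Lima1 were chosen for it, nothing is read from these shares.

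The arrays contributed unequally to the members' values. Disturbed 2 held the highest value of 6 of the 11 member probes, and of 16.3% of all measured probes. Stable 2 held the lowest value of 8 of the 11, and of 50.2% of all measured probes. The pooled within-group SD ran from 0.22 for Vasp to 1.19 for the Actn4 probe ILMN_1242390. That of Actn1 was 0.98, against a median of 0.57 over all measured probes.

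**Figure D3:**
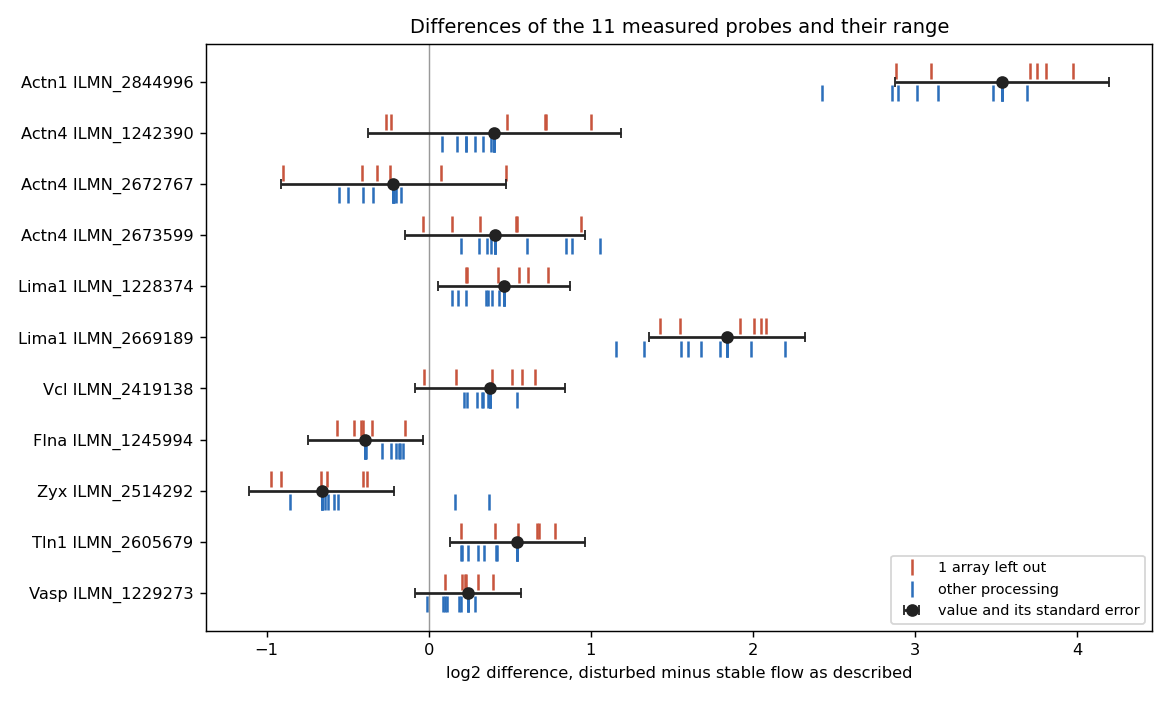
Log2 difference of each of the 11 measured probes, disturbed minus stable flow as described, with its standard error (black), with 1 array left out (red ticks) and under other processing (blue ticks, matrix columns as named left out). Actn1 stays between 2.43 and 3.97 and the brighter Lima1 probe between 1.33 and 2.20, while ticks of all 3 Actn4 probes, Vcl, Zyx and Vasp fall on both sides of 0. The tick at 1.15 in the row of the brighter Lima1 probe is the mean of both Lima1 probes.

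Genes around the members were drawn from 7 lists of adhesion and actin genes, with the members left out and each gene taken by its brightest measured probe. Of 93 measured entries in these lists 0 passed the test in either direction (limma, adjusted over all probes, two-sided), and the smallest adjusted p was 0.890. With 3 arrays a group the number of arrays limits the precision, and the standard error of a difference had a median of 0.45 over all probes. The genes named from the lists had adjusted p-values of 0.890 to 0.960, and their values are given with no call. The groups did not overlap for 4 of the 93 entries with disturbed flow higher: Lims1, Capza1, Capzb and Rock1. They did not overlap for 5 with it lower: Lasp1, Synpo, Capza2, Myl12b and Tpm3. Over all measured probes these shares were 5.68% and 4%. Ranges over 5 other scalings refer to no background correction, percentile scaling, cyclic loess, no normalization and an offset of 50.

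Focal adhesion adaptors had 17 higher and 2 lower means among 19 measured genes of 25, with a median difference of 0.47. The median was 0.27 without disturbed 2 and 0.80 without disturbed 1. Pxn, which encodes the scaffold paxillin, had a difference of 1.06 (SE 0.44), and 0.44 to 0.80 over the 5 other scalings. Its other measured probes gave 0.78 and 0.55. The 0.78 came from disturbed 2 at 8.11, with the other arrays at 4.39 to 5.24. The 0.55 came from disturbed 2 at 7.56, with disturbed 1 and disturbed 3 inside the stable flow range of 4.38 to 6.06. Lims1, the PINCH1 gene of the integrin-linked kinase complex, differed by 0.70 (SE 0.39), by 0.22 to 0.43 over the 5 other scalings and by 0.41 without stable 2. The other Lims1 probe, above background on 2 arrays and so not measured, went the other way. It gave -1.63, with all disturbed flow values below all stable flow values. Itgb1, the integrin beta-1 gene, differed by -0.21 (SE 0.51), but by 0.63 with percentile scaling, 0.42 with no normalization and 0.10 with cyclic loess. Its other probe gave 1.14, with stable 2 at 4.47 and the other arrays at 7.26 to 8.23.

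LIM and PDZ-LIM proteins of actin fibres, the class of Lima1 and Zyx, had 7 higher and 6 lower means among 13 measured genes of 19, and a median of 0.10 that became -0.21 without stable 2 and -0.11 with cyclic loess. Csrp2, a LIM protein gene of smooth muscle, had 7.57, 4.93 and 7.61 on stable 1 to 3 and 7.15, 8.82 and 10.44 on disturbed 1 to 3. The groups overlapped through disturbed 1. The difference was 2.10 (SE 1.01), and 1.22 without stable 2. Lasp1, a LIM and SH3 protein gene, differed by -0.67 (SE 0.36), but by 0.25 with percentile scaling and 0.04 with no normalization, and its other measured probe gave -0.13.

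Actin crosslinkers other than the members had 2 higher and 4 lower means among 6 measured genes of 15. Their median of -0.32 became 0.61 with percentile scaling and 0.40 with no normalization. Myo1c, a membrane-linked myosin gene, differed by 1.77 (SE 0.82) and by 0.97 without disturbed 2, with 1 stable flow array above background and 0.35 for its other measured probe. Synpo, the gene of synaptopodin, which bundles actin with alpha-actinin, had -0.54 (SE 0.33) and -0.52 for its probes, but the first gave 0.40 with percentile scaling and 0.19 with no normalization.

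Among 22 measured actin polymerisation genes of 26, 14 were higher and 8 lower, with a median of 0.13 that became -0.25 without stable 2 and -0.09 with cyclic loess. Capzb, Capza1 and Capza2 encode subunits of the protein that caps filament ends, and in the main setting they did not all go the same way. Capzb differed by 1.25 (SE 0.48) and by 0.58 to 1.03 over the 5 other scalings, with 0.30 for its other measured probe. Capza1 differed by 0.92 (SE 0.46), by 0.46 to 0.74 over those scalings and by 0.48 without disturbed 3. Capza2, above background on all arrays, differed by -0.54 (SE 0.37), with disturbed flow lower and no overlap. With 1 array left out it differed by -0.74 to -0.25. Its 2 other measured probes and its values under other scalings are not given here, so its direction holds for this probe and setting.

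Actomyosin genes were 9 higher and 10 lower among 19 measured of 26, with a median of -0.0043 that was 0.50 with percentile scaling. Actb, the cytoplasmic beta-actin gene, differed by -0.09 (SE 0.34), but by 0.89 with percentile scaling and 0.68 with no normalization, and its other probes gave -0.48 to 0.01. The smooth muscle actin gene Acta2 differed by -0.29 (SE 0.34), but by 0.52 and 0.31 in those settings, and its other measured probes gave 0.91, 0.38 and -0.12. The 0.91 came from disturbed 1 at 8.23, with the other arrays at 4.76 to 5.33, and the 0.38 from stable 2 at 4.31. Myl12b, a myosin regulatory light chain gene, differed by -1.31 (SE 0.50) and by -0.59 with percentile scaling, with -0.22 and -0.48 for its other probes. Tpm3, a tropomyosin gene, differed by -0.82 (SE 0.32), but by 0.09 with percentile scaling, and its other measured probe gave 0.69. Rock1, with disturbed flow higher and no overlap, differed by 1.44 (SE 0.56) and by 0.99 to 2.01 with 1 array left out.

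Cadherin-actin linkers had 6 higher and 2 lower means among 8 measured genes of 12, with a median of 0.22 that became -0.06 without disturbed 3. Ctnnd1, the p120 catenin gene, differed by 0.41 (SE 0.52), but by -0.07 without disturbed 3, and its other measured probes gave 0.23, -0.05 and -0.12. Msn, the moesin gene, differed by -0.34 (SE 0.41), but by 0.42 with percentile scaling and 0.21 with no normalization, and its other measured probe gave 0.25.

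Of 6 measured SRF and MRTF factors of 8, 5 were higher and 1 lower, and the median of 0.28 became -0.15 without stable 2. Srf had 8.97, 4.51 and 6.78 on stable 1 to 3 and 6.73, 7.40 and 6.95 on disturbed 1 to 3. Its stable flow arrays held both the lowest and the highest value. The difference of 0.27 (SE 1.01) became -0.85 without stable 2, -0.30 with cyclic loess, -0.07 with no background correction and -0.08 with no normalization. Mrtfb, which encodes an actin-sensing SRF cofactor, differed by 0.47 (SE 0.34), but by 0.04 with no normalization and 0.16 with no background correction, and its other measured probes gave 0.45 and 0.22. Elk4, an ETS partner of SRF, differed by 1.03 (SE 0.59) and by 0.48 to 0.72 over the 5 other scalings, with 0.06 and -0.77 for the other measured Elk4 probes.

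**Figure D4:**
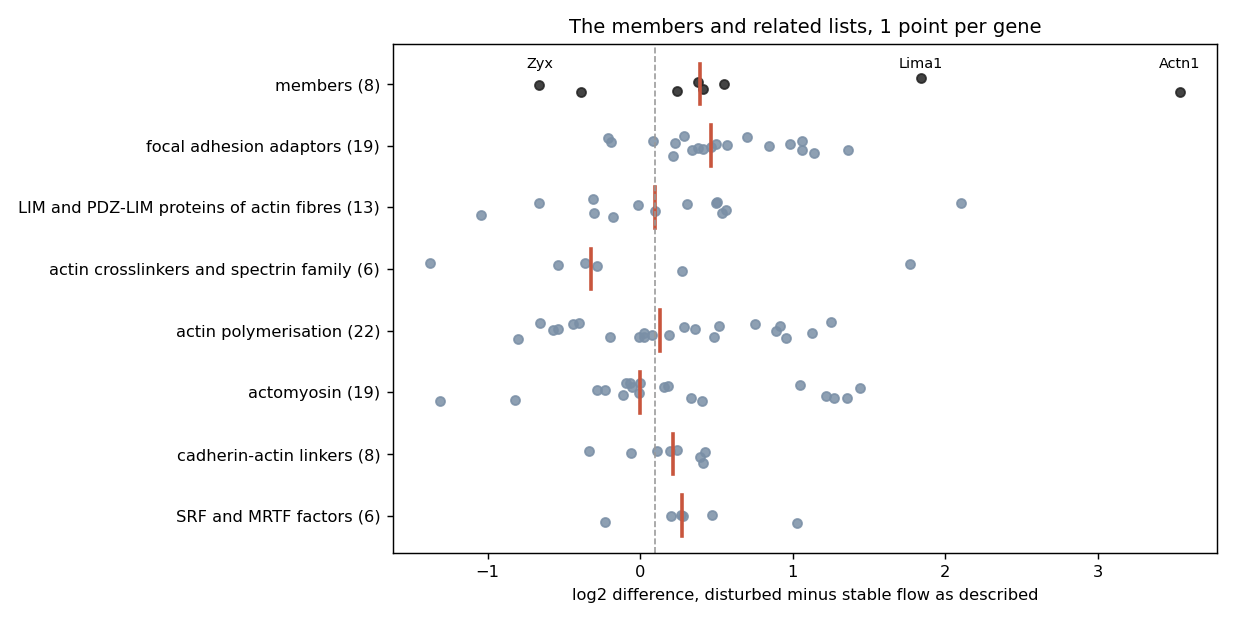
Log2 difference, disturbed minus stable flow as described, of the 8 members (black) and of the measured genes of 7 related lists with the members left out (grey), with the number of genes in brackets, list medians in red and the median of all measured probes, 0.10, as a dashed line. Actn1, chosen on this comparison, lies at 3.54, and the genes of the 7 lists, not so chosen, range from -1.38 to 2.10.

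The genes most like Actn1 and Lima1 were found by Pearson correlation of normalized log2 intensity over the 6 arrays, which share their scaling and the group difference that chose both genes. For Actn1 they were Nol4l, Elmo1, Tmed3, Lancl1 and Phospho2, with correlations of 0.991 for Nol4l and 0.983 to 0.986 for the others. Their log2 differences were smaller than that of Actn1, 0.44 to 0.98. For the brighter Lima1 probe they were Ube2f, Phf6, Ppp6r2, Ets1 and Astn2, with correlations of 0.978 to 0.990. Ets1, an endothelial transcription factor gene, had a log2 difference of 2.09 (SE 0.58). Over these 6 arrays, 208 of the 12546 measured probes reached a correlation of 0.9 with Actn1 and 152 with the brighter Lima1 probe. Other probes of the same genes did not always share the pattern, with a correlation of -0.854 for Tmed3 and -0.633 for Ets1.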

How the data were processed

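Biotin-labelled RNA was hybridized to Illumina bead arrays. GenomeStudio 2011.1 appears in the submitters' processing notes, without settings. The deposited table holds an unprocessed signal intensity per probe and array, linear and not background-subtracted, per the file headers and the values, and a deposited detection p-value against negative control beads. The deposited series matrix holds processed intensity values on a linear scale, not centred, whose making no label states. It was used as an alternative.

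Signals were processed with neqc in limma 3.58.1 (R 4.3.3): background estimated from the detection p-values, quantile normalization, offset of 16, log2. Probes with detection p under 0.05 on at least 3 of 6 arrays, 12546, were fitted with lmFit and eBayes (two-sided, Benjamini-Hochberg, threshold 0.05), with no block. Differences include the offset and understate changes of dim probes. Probes were named by the platform's gene symbols, brought up to date by gene ID: 34885 probes had 1 symbol, 18 several and 10378 none here. Members, gene lists and tests were chosen with earlier results of these data known. The text names all members with every probe, the 2 genes with the smallest p of each list, and Acta2, Actb, Srf, Itgb1 and Pxn. It also names Capza2, beside Capza1 and Capzb, Rock1, which had no overlap, and the 5 genes most like Actn1 and Lima1. The fit was tested on simulated data. The CArG box search used RefSeq promoter windows.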

Additional observations from a re-analysis of the deposited data

How the results depend on the processing

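Alternatives were no background correction, percentile scaling, cyclic loess, no normalization, an offset of 50, no filter, a detection p under 0.01, array weights, an intensity trend with robust prior, a replicate block, the matrix columns as named and by rank order, and each array left out. Limma called 0 probes under all 18. Probes at an unadjusted p under 0.05 ran from 15 of 12546 (no normalization) to 2097 of 45281 (no filter), against 338 of 12546 in the main setting. The replicate block changed no call (0 calls, 329 at an unadjusted p under 0.05), and same-numbered arrays did not deviate together (correlations of -0.03, -0.07 and -0.08). No normalization moved the median of all measured probes from 0.10 to -0.10. Under the matrix column names the differences were -3.14 for Actn1, -0.34, 0.20 and -0.38 for the Actn4 probes ILMN_1242390, ILMN_2672767 and ILMN_2673599, -0.39 and -1.68 for the dimmer and brighter Lima1 probes, -0.33 for Vcl, 0.29 for Flna, 0.64 for Zyx, -0.42 for Tln1 and -0.29 for Vasp. The medians there were -0.36 over the members, -0.38 for adaptors, -0.0018 for LIM proteins, 0.31 for crosslinkers, -0.12 for polymerisation, 0.0034 for actomyosin, -0.21 for cadherin linkers and -0.22 for SRF factors. Actn1, Flna, Tln1 and both Lima1 probes kept their sign in all other alternatives. Zyx turned to 0.37 with percentile scaling and 0.16 with no normalization, where Vasp turned to -0.013. Leaving out 1 array, the Actn4 probes ranged from -0.26 to 1.00, from -0.90 to 0.48 and from -0.034 to 0.94, and Vcl from -0.028 to 0.65. The LIM median turned to -0.016 with no background correction, -0.11 with cyclic loess, -0.014 with the offset of 50 and -0.10 with array weights. Crosslinkers turned to 0.61 with percentile scaling and 0.40 with no normalization. Polymerisation turned to -0.092 with cyclic loess and -0.026 with weights. Actomyosin turned to 0.50 with percentile scaling, 0.053 with cyclic loess, 0.29 with no normalization and 0.086 with a detection p under 0.01. SRF factors turned to -0.061 with cyclic loess, -0.058 with no normalization and -0.16 with weights. Leaving out 1 array, the medians ranged from -0.21 to 0.41 (LIM), -0.25 to 0.41 (polymerisation), -0.15 to 0.33 (actomyosin), -0.059 to 0.45 (cadherin linkers) and -0.15 to 0.46 (SRF factors). The count of member probes with disturbed flow higher and no overlap, an alternative chosen after seeing the data, was 1 with percentile scaling (4.02% of all measured probes), 1 with no normalization (0.359%), 3 with cyclic loess (4.89%) and 0 under the matrix column names, where 2 were lower. With 1 array left out it was 2 to 5, against 7.60% to 19.0% of all measured probes, and 5 without disturbed 3, against 11.4%. There 0 or 1 member probe was lower. The causes were not tested.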
